A study of Homo sapiens with 36 samples.

Results

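Activins, TGF-betas and bone morphogenetic proteins (BMPs) are secreted dimers of one ligand family, and 10 genes of this signalling family were followed here through wt, cis and cis SSP cells. The list holds the activin subunits INHBA and INHBB, the ligands TGFB1, TGFB2, TGFB3, BMP4 and BMP7, the activin-binding antagonists FST and FSTL3, and the inhibitory SMAD7. These 10 genes were taken from the 57820 gene identifiers of the count table by their symbols. INHBA was chosen by its counts, near 0 in sensitive cells and high in resistant cells, so its difference between wt and cis cells is a description without a test.

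A ligand dimer brings type I and type II receptor kinases together, and the type I receptor phosphorylates SMAD proteins that move to the nucleus with SMAD4. Activins and TGF-betas act mainly through SMAD2 and SMAD3, and BMPs through SMAD1, SMAD5 and SMAD9. Follistatin (FST) and follistatin-like 3 (FSTL3) bind activins and keep them from their receptors, and SMAD7 is a target of the pathway that switches the receptors off. In ovary, activins are known from granulosa cells, where they act on follicle growth, and TGF-beta ligands are known in carcinomas for their effects on growth arrest, matrix genes and epithelial character.

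A2780 is an established human ovarian cancer cell line. The wt cells are platinum sensitive, cis cells are their resistant counterpart made by long exposure of the parental line to cisplatin, and cis SSP cells are cis cells that started to grow again after prolonged culture without serine and glycine. RNA-seq libraries were made from each of the 3 lines in complete medium or in medium without serine and glycine (-SG), each with or without carboplatin (carbo), a platinum drug that crosslinks DNA, which gives 12 conditions of 3 libraries and 36 libraries in all. The dose of carboplatin is left out, since its unit is damaged in the labels, and the methods give no time of treatment for the RNA-seq itself. Each line is a single cell line, and since the study names its repeat libraries as technical ones, the p-values below cover only the spread among them.

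Each library held between 13074937 and 20441582 counts on genes. Levels are CPM, which are counts scaled to a common library size (TMM scaling over the 36 libraries), given as mean ± SD over the 3 libraries of a condition. The labels call the cells ovarian cancer cells, yet the defining markers PAX8, KRT7, MUC16 and MSLN had at most 10 counts in any library, EPCAM had 1 to 33, WT1 at most 27, KRT8 3 to 112, and KRT18 7 to 122 in wt and 121 to 830 elsewhere. Fibroblast-type matrix genes differed between the lines: COL1A2 had 6427 to 13853 counts in wt libraries and at most 20 elsewhere, and DCN had 287 to 442 counts in cis SSP libraries and at most 18 elsewhere. The immune markers PTPRC, CD3E and CD14 and the endothelial markers CDH5 and VWF had at most 5 counts in any library. In bulk RNA, fewer cells that use a gene and less RNA of it per cell cannot be told apart.

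Libraries 25 (cis SSP replicate 1) and 32 (cis SSP -SG replicate 2) stood apart from the other libraries of their conditions. The SD of the log2 ratio over genes between one library and the rest of its condition was 0.667 for library 25 and 0.688 for library 32, and at most 0.266 in the 10 other conditions. In both, the ratio fell with the exon length of the gene, with a Spearman correlation over genes of -0.596 and -0.593. Among the members, INHBA, with 8284 exon bases the longest, stood at 0.596 times the mean of its other 2 libraries in library 25 and at 0.581 times in library 32. FSTL3, with 3033 exon bases, stood at 1.81 and 1.66 times. Results of tests on cis SSP cells are therefore given with and without both libraries. Library 11 (wt -SG carbo replicate 2) had a like trend with exon length, at -0.568, with a smaller spread over genes (SD 0.266).

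**Figure D1:**
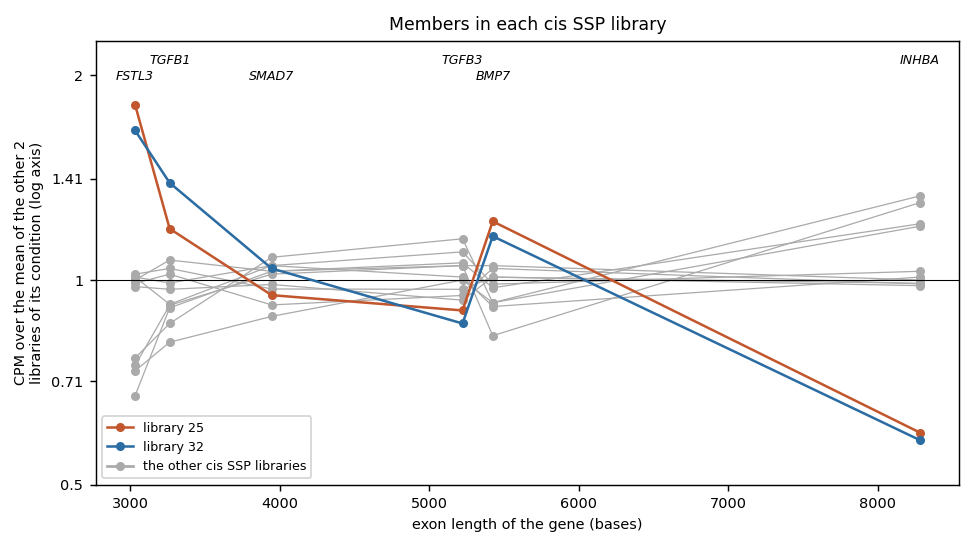
CPM of 6 members in each of the 12 cis SSP libraries over the mean of the other 2 libraries of the same condition (vertical, log axis) against exon length in bases (horizontal). Libraries 25 and 32 lie above 1 for FSTL3 (1.81 and 1.66) and below 1 for INHBA (0.596 and 0.581).

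The sequences upstream of INHBA, INHBB, FST and TGFB2 are shown because these are the members with few or no counts in some conditions and many more in others. Each is the stretch of 250 bases before the RefSeq gene start (GRCh38.p14, 5′ to 3′ on the strand of the gene), with CG pairs and the TATA-box letters TATAAA in capitals. INHBA lies at chr7:41703091-41703340 (minus strand), INHBB at chr2:120345886-120346135 (plus strand), FST at chr5:53480379-53480628 (plus strand) and TGFB2 at chr1:218345086-218345335 (plus strand).
INHBA: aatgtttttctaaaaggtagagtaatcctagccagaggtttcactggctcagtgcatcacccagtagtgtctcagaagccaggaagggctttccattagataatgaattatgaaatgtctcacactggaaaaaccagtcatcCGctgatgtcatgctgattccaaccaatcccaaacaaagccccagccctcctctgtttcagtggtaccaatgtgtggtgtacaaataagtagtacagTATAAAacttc
INHBB: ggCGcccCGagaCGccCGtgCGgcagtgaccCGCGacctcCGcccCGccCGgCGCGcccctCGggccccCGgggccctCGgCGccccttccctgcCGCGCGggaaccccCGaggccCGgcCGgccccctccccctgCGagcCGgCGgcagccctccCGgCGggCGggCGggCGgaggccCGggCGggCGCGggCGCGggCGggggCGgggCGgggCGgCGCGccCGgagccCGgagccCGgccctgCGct
FST: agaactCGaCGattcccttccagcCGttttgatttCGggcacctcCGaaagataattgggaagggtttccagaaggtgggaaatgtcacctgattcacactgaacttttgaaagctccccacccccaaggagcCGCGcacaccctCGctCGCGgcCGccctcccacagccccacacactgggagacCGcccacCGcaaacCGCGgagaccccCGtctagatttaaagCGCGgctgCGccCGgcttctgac
TGFB2: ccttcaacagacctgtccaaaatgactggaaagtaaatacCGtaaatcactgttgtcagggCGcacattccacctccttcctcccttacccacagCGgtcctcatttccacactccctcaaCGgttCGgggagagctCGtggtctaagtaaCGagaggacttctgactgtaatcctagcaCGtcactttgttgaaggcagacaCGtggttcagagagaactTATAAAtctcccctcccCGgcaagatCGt

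The INHBA stretch has 1 CG pair, the TGFB2 stretch 11, the FST stretch 20 and the INHBB stretch 46. Of 35116 such stretches of the RefSeq table, 14.7% had as few CG pairs as INHBA, and 99.7% had as many as INHBB or fewer. TATAAA, searched on both strands, was found upstream of INHBA, where it ends 5 bases before the start, and of TGFB2, where it ends 23 bases before, and neither of INHBB nor of FST, and 10.7% of all stretches hold it. Among the members whose stretches are not printed, TATAAA was also found upstream of FSTL3 and in a stretch of TGFB3 and of SMAD7. The SP1-type letters GGGCGG, on either strand, were found upstream of INHBB, FST, FSTL3 and TGFB1, in stretches of BMP4, and in 42.6% of all stretches. Of the 10 members, 9 had an entry in the table, and BMP7 had none. These matches describe the letters and were not tested against the levels that follow.

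INHBA encodes the activin A subunit and lies on chromosome 7 from 41706766 to 41745432 (GRCh37, minus strand). In wt cells, the 3 libraries had 0, 1 and 0 counts. In cis cells they had 2842, 3461 and 3574 counts, or 185.3, 185.0 and 198.8 CPM. The mean was 190 ± 7.89 CPM in cis and 0.0184 ± 0.0318 CPM in wt, which is the contrast the gene was selected on. The ratio of the summed counts was 10500, with a 95% exact interval from 1880 to 415000 that covers counting error only. cis SSP cells had 1362, 2838 and 3003 counts in complete medium, all above every wt library. Over the 24 libraries of both resistant lines, the lowest INHBA count was 1356, in library 32, and the highest of the 12 wt libraries was 36.

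Ordered by mean CPM, INHBA was highest in cis -SG carbo (267 ± 4.04), then in cis -SG (239 ± 2.72), cis carbo (210 ± 2.41) and cis (190 ± 7.89), and the libraries of these 4 conditions did not overlap from one to the next. The cis SSP conditions followed, from 185 ± 3.20 with carboplatin to 145 ± 39.3 in complete medium, where the libraries of cis and cis SSP carbo overlapped. Next came wt -SG carbo with 1.94 ± 0.522 and wt carbo with 1.52 ± 0.214, which overlapped, and wt and wt -SG at or near 0. That the wt conditions came last follows from how INHBA was selected, and the order within each line is a description.

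**Figure D2:**
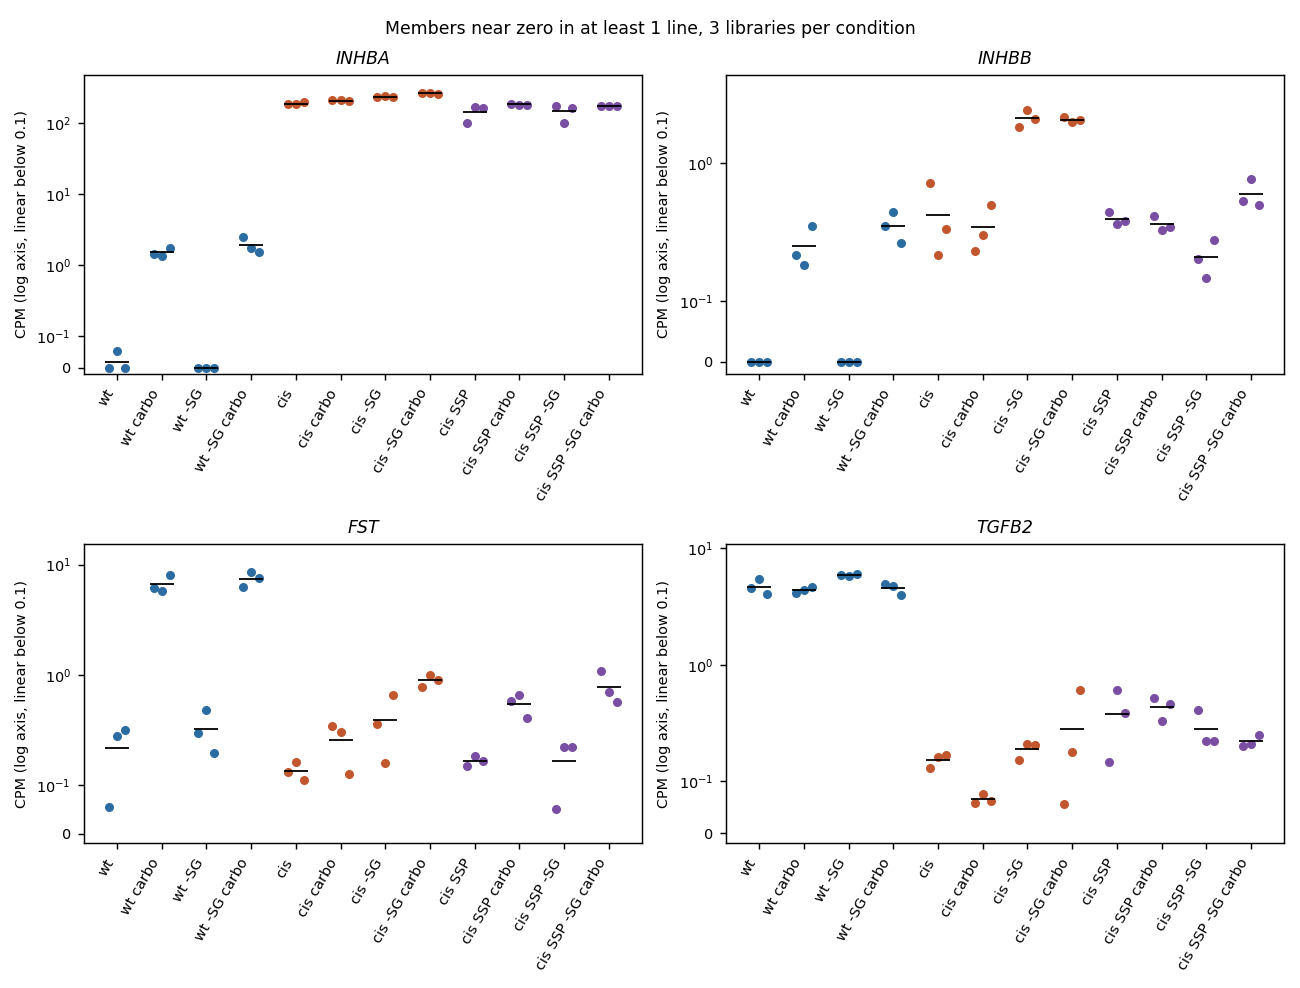
CPM of INHBA, INHBB, FST and TGFB2 in each of the 36 libraries (points; bars, means of 3 libraries; vertical axis logarithmic above 0.1 CPM and linear below) by condition. INHBA lies at or under 2.52 CPM in wt and at or above 99.8 CPM in both resistant lines, while TGFB2 shows the opposite order, at or above 3.97 CPM in wt and at or under 0.611 CPM elsewhere.

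Between wt and cis cells in complete medium, FSTL3, TGFB1, TGFB3, BMP7 and SMAD7 were higher in cis and TGFB2 was lower. Of the 9 members other than INHBA, 6 passed the filter on low counts and all 6 were called (adjusted p under 0.05), in a comparison in which 78.5% of all genes tested were called. The median log2 fold change of these 6 was 0.80, beside -0.00407 over all genes tested, and the members that passed are not the whole list. The count and the median include TGFB2, which passed the filter through wt, where it is high. With at least 10 counts required in every library, 5 members were tested and 5 called. INHBB, FST and BMP4 had too few counts to be tested, and DESeq2, which tested INHBB, called it too.

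BMP7, a ligand known from kidney and bone development (chromosome 20, 55743809 to 55841697, minus strand), had 297, 323 and 319 counts in wt and 1130, 1423 and 1339 counts in cis. Its level was 16.97 ± 0.711 CPM in wt and 74.7 ± 1.22 in cis, a log2 fold change of 2.12 (SE 0.051, adjusted p = 6.41e-35). The groups did not overlap. FSTL3, the second activin antagonist of the list (chromosome 19, 676392 to 683392, plus strand), had 239, 234 and 304 counts in wt and 744, 909 and 862 in cis. It rose by 1.76 on the log2 scale (SE 0.0629, adjusted p = 4.25e-28), from 14.01 ± 1.66 to 48.3 ± 0.348 CPM.

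TGFB2, a ligand needed for heart and skeleton in mice (chromosome 1, 218518678 to 218617961, plus strand), went the other way. Its counts were 83, 98 and 77 in wt and 2, 3 and 3 in cis, a log2 fold change of -4.88 (SE 0.301, adjusted p = 3.36e-19). TGFB2 passed the filter through wt, where it is high, so its call is no independent test. All 12 wt libraries had 60 or more counts, and the 24 libraries of cis and cis SSP cells had 11 or fewer. TGFB3, a ligand of palate and lung development (chromosome 14, 76424440 to 76449354, minus strand), rose in cis by 0.83 (SE 0.0598, adjusted p = 7.45e-17), from 20.01 ± 0.787 to 36.1 ± 1.70 CPM. The 3 TGF-beta isoforms thus did not move in one direction between the lines.

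TGFB1, the best known isoform (chromosome 19, 41807492 to 41859827, minus strand), had 2130, 2389 and 2401 counts in wt and 3485, 4194 and 3586 in cis. It rose by 0.77 (SE 0.072, adjusted p = 1.87e-04), from 125 ± 6.83 to 217 ± 15.2 CPM. SMAD7, the receptor inhibitor (chromosome 18, 46446223 to 46477335, minus strand), rose by 0.58 (SE 0.0717, adjusted p = 1.05e-09), from 13.9 ± 0.713 to 20.96 ± 0.402 CPM. TGFB1 overlaps HNRNPUL1, with up to 9851 counts in a library, and CCDC97, with up to 1189, on the opposite strand, and TGFB3 overlaps IFT43, with up to 536. These overlaps are of whole gene spans, and overlap of exons, over which reads were counted, was not examined. The strand setting of the counting is not given in the sources used here. Whether reads of these partners are among those of TGFB1 and TGFB3 was therefore not tested.

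Per kilobase of exon, which allows levels of different genes to be set side by side, TGFB1 was the highest member in wt (38.3 ± 2.09 CPM per kb), followed by FSTL3 (4.62 ± 0.547), TGFB3 (3.83 ± 0.151), SMAD7 (3.52 ± 0.181) and BMP7 (3.13 ± 0.131). In cis, TGFB1 was again highest (66.5 ± 4.66 CPM per kb), and INHBA came next (22.9 ± 0.952), ahead of FSTL3 (15.9 ± 0.115) and BMP7 (13.8 ± 0.225). INHBB, FST and BMP4 stayed at or under 0.132 CPM per kb in both. BMP4, a mesoderm and germ cell ligand (chromosome 14, 54416454 to 54425479, minus strand), had at most 6 counts in each of the 36 libraries and passed the filter in no comparison. INHBB, the activin B subunit (chromosome 2, 121103712 to 121109379, plus strand), had 0 counts in each wt library and 11, 4 and 6 in cis, at least 2.59-fold higher in cis when set against 3 counts per library.

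**Figure D3:**
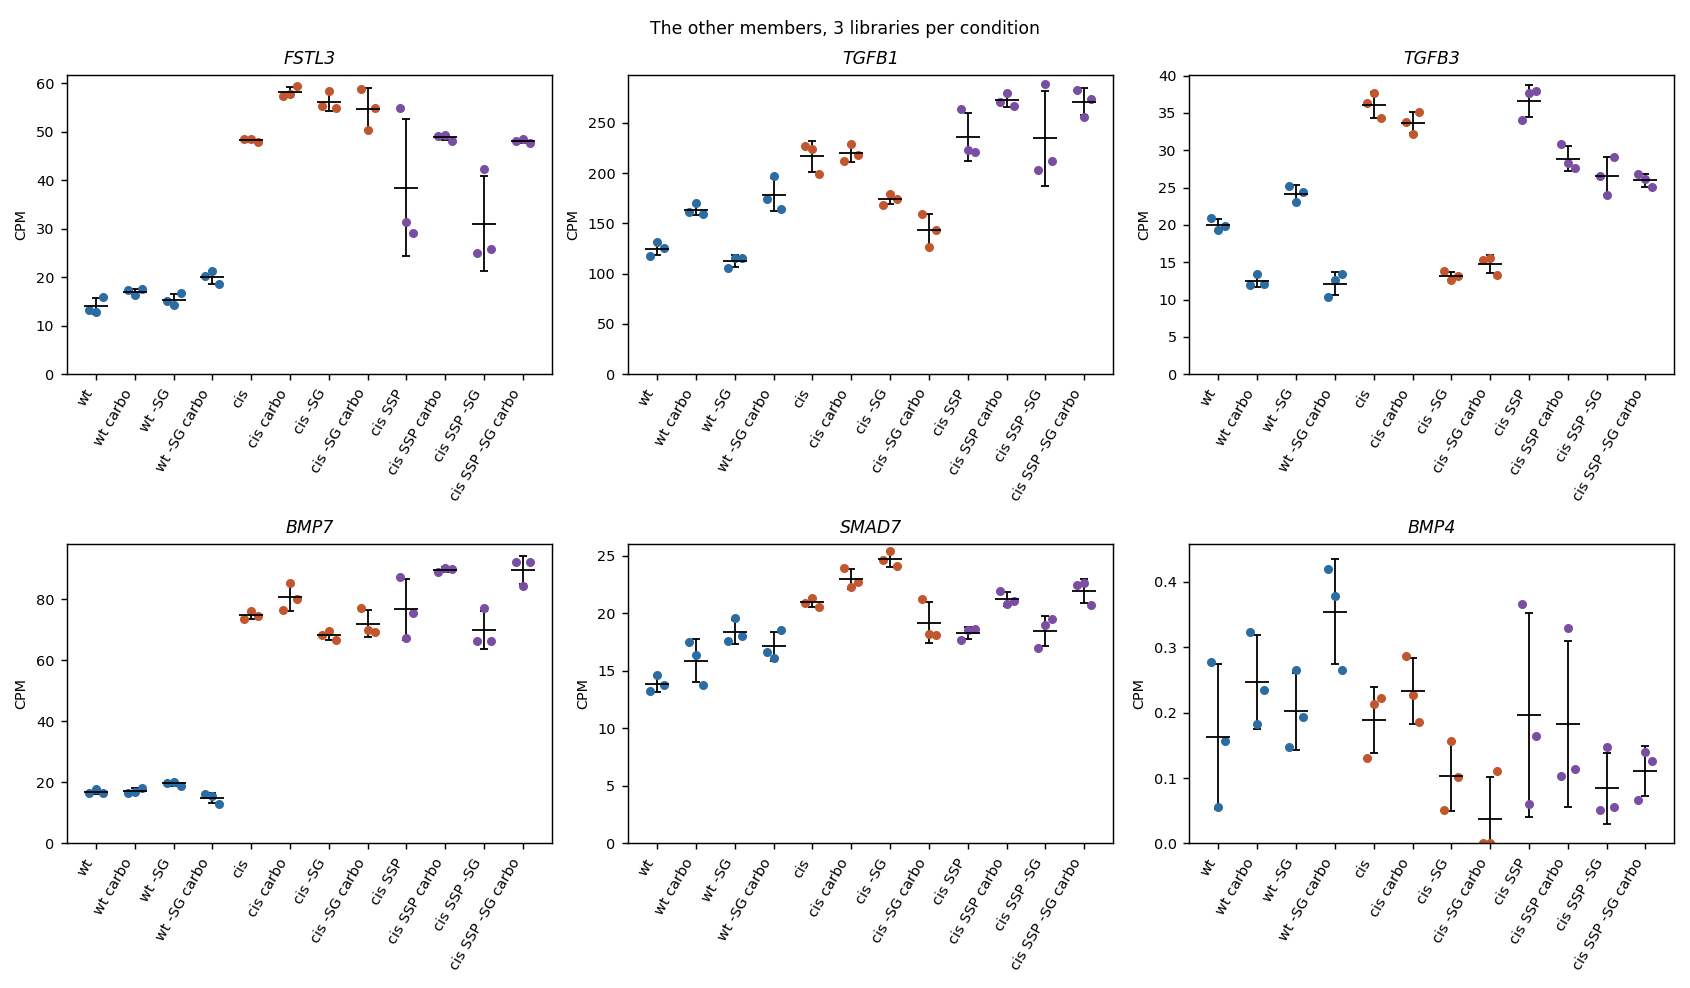
CPM of FSTL3, TGFB1, TGFB3, BMP7, SMAD7 and BMP4 in each of the 36 libraries (points; bars, mean and SD of 3 libraries; linear axes from 0) by condition. BMP7 lies at or under 20.3 CPM in wt and at or above 66.4 in both resistant lines, TGFB3 falls to 13.2 CPM in cis -SG, and FSTL3 spreads from 29.2 to 54.9 CPM in cis SSP because library 25 is apart.

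The rest of the pathway was read from lists of ligands, receptors, SMADs and co-regulators, antagonists, activation and latency genes, and target genes, which do not hold the 10 members. Between wt and cis, 70 of these genes were tested, 30 were called higher in cis and 32 lower, beside 39.4% and 39.1% of all genes. Of 12 receptors tested, 7 were higher and 4 lower, among the latter the betaglycan gene TGFBR3 (8.18 ± 0.139 CPM in cis, 32.5 ± 0.721 in wt) and the activin receptor gene ACVR2B (24.9 ± 0.445 and 85.1 ± 3.68). Of 10 activation and latency genes, 2 were higher and 7 lower, with ITGAV, an integrin subunit that binds latent TGF-beta, at 979 ± 18.7 CPM in cis and 2985 ± 44.2 in wt. Of 18 targets, 8 were higher and 9 lower. The target PMEPA1, which restrains SMAD signalling, had 10.6 ± 0.4 CPM in cis and no counts in wt, and COL1A1 had 4.02 ± 0.671 CPM in cis and 162 ± 1.59 in wt. SOST, the BMP and Wnt antagonist sclerostin, had 33.6 ± 0.907 CPM in cis and 0.127 ± 0.0333 in wt. PMEPA1 and SOST passed the filter through cis, where they are high, so their calls, which the counts include, are no independent tests.

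The response to carboplatin was asked next in each line. In wt cells in complete medium, INHBA, FST, FSTL3, TGFB1 and SMAD7 rose and TGFB3 fell, so that 6 of the 8 members tested were called, beside 77.8% of all genes. The median log2 fold change of the 8 was 0.246, beside -0.000736 over all genes. INHBA and FST passed the filter through wt carbo, where they are high, and INHBA was selected on its near absence in wt cells. Their calls are therefore no independent tests, and the count and the median include them. The p53 target CDKN1A, which marks the response to DNA damage, rose in wt cells from 140 to 1777 CPM.

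FST (chromosome 5, 52776456 to 52782964, plus strand) had many counts in the treated wt libraries and few in the untreated ones. It had 1, 5 and 6 counts in wt and 113, 94 and 137 in wt carbo, or 0.215 ± 0.140 and 6.62 ± 1.23 CPM, a log2 fold change of 4.89 (SE 0.253, adjusted p = 7.93e-66). INHBA rose in the same libraries from 0, 1 and 0 counts to 27, 22 and 30 (adjusted p = 1.50e-21). The ratio of its summed counts was 84, with a 95% exact interval from 14.7 to 3360. The treated wt level of 1.52 CPM stayed far under the 190 CPM of untreated cis cells. INHBB had 0 counts in untreated wt libraries and 4, 3 and 6 in treated ones, at least 1.54-fold higher against 3 counts per library. It did not pass the filter, and DESeq2, the fit without a filter and the one fit over the 36 libraries called it.

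Changes of the other members were smaller. TGFB3 fell by 0.68 on the log2 scale (SE 0.074, adjusted p = 1.47e-18), from 377, 351 and 379 counts to 220, 221 and 207. TGFB1 rose by 0.40 (SE 0.0272, adjusted p = 1.76e-38) and FSTL3 by 0.29 (SE 0.0748, adjusted p = 2.33e-04), and for both the libraries did not overlap. SMAD7 rose by 0.21 (SE 0.0762, adjusted p = 0.0098), with overlapping libraries, and its call was lost with DESeq2, without TMM scaling, without wt replicate 1 (0.16) and without wt carbo replicate 1 (0.13). BMP7 (0.02) and TGFB2 (-0.08) were not called. In one fit over the 36 libraries, which shares one spread with libraries 25 and 32, the call of FSTL3 was lost (0.28).

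Without serine and glycine, carboplatin in wt cells gave 7 called members of 8 tested, beside 68.9% of all genes, with medians of 0.143 and -0.00702. The count and the median again include INHBA and FST, which passed the filter through wt -SG carbo, where they are high. The calls of INHBA and FST are therefore no independent tests. FST went from 6, 9 and 3 counts to 90, 136 and 114 (log2 fold change 4.48, SE 0.252, adjusted p = 3.23e-07). INHBA went from 0 counts in each library to 36, 28 and 23, at least 11.6-fold higher against 3 counts per library (adjusted p = 3.99e-05). TGFB1 rose by 0.67 (SE 0.0729, adjusted p = 2.60e-05) and FSTL3 by 0.39 (SE 0.0868, adjusted p = 0.00301). TGFB3 fell by 0.99 (SE 0.0986, adjusted p = 1.46e-05), BMP7 fell by 0.40 (SE 0.0911, adjusted p = 0.00347) and TGFB2 fell by 0.37 (SE 0.12, adjusted p = 0.019). The call of TGFB2 was lost with DESeq2, without wt -SG replicate 3 (-0.36) and without wt -SG carbo replicate 3 (-0.29). SMAD7 was at -0.10 and not called. INHBB went from 0 counts in each library to 5, 7 and 4, at least 2.11-fold higher, and was called by the same alternatives as in complete medium. Without library 11, the same 7 members were called. In one fit over the 36 libraries the calls of FSTL3 (0.38) and TGFB2 (-0.38) were lost.

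In cis cells in complete medium, 2 of 6 members tested were called under carboplatin, beside 20.1% of all genes, with medians of 0.132 and 0.00279. INHBA had 2842, 3461 and 3574 counts without and 3684, 2803 and 3344 counts with the drug, which is 190 ± 7.89 and 210 ± 2.41 CPM. The change was 0.16 on the log2 scale (SE 0.0309, adjusted p = 3.66e-04). FSTL3 rose by 0.28 (SE 0.0439, adjusted p = 2.29e-05), from 48.3 ± 0.348 to 58.3 ± 1.09 CPM. Both groups of libraries stood apart by CPM, although both changes were small. FST had 2, 3 and 2 counts without and 6, 4 and 2 with carboplatin. BMP7 was at 0.12 (adjusted p = 0.0501) and was called without cis carbo replicate 1 (0.16), with DESeq2 size factors and with at least 10 counts in every library (both 0.12). In one fit over the 36 libraries the calls of INHBA (0.15) and FSTL3 (0.27) were lost.

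The wt and cis responses were then compared with each other in one fit with an interaction term, in which 4 of 8 members tested were called, beside 57.6% of all genes. The difference of log2 fold changes, cis minus wt, was -0.36 for TGFB1 (SE 0.0862, adjusted p = 0.00519), and 0.60 for TGFB3 (SE 0.0917, adjusted p = 9.30e-08). The other 2 called members, INHBA and FST, are no independent tests, since INHBA was selected on its near absence in wt cells and FST passed the filter through wt carbo, where it is high. As levels, INHBA went from 0.0184 to 1.52 CPM in wt and from 190 to 210 in cis, and FST from 0.215 to 6.62 in wt and from 0.134 to 0.257 in cis. FSTL3, which was called in each line alone, had a difference of 0.00 between them (SE 0.1, adjusted p = 1.0).

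Without serine and glycine, 3 of 8 members tested were called in cis cells under carboplatin, beside 22.5% of all genes, with medians of 0.0337 and 0.00336. INHBA rose by 0.17 (SE 0.0289, adjusted p = 9.94e-04), from 239 ± 2.72 to 267 ± 4.04 CPM. SMAD7 fell by 0.36 (SE 0.0717, adjusted p = 0.00317), from 483, 487 and 475 counts to 382, 309 and 326, and was at -0.21 and no longer called without libraries 23 and 24. TGFB1 fell by 0.27 (SE 0.0763, adjusted p = 0.0426), a call that was lost without any 1 of the cis -SG libraries, without cis -SG carbo replicate 3 and without TMM scaling, at -0.25 to -0.30. Libraries 23 and 24 belong to cis -SG carbo and had the highest shares of reads on no annotated feature, up to 17.9%, and the part of that share in these values was not tested. FST had 7, 3 and 13 counts without and 14, 17 and 16 with the drug (1.17, SE 0.418, adjusted p = 0.0589), and it was called without the filter (1.15), without cis -SG replicate 3 (1.76) and without cis -SG carbo replicate 1 (1.25). It passed the filter through cis -SG carbo, where it is high, so it gives no independent test here. The 8 members tested and their median include FST. Without libraries 23 and 24, BMP7 was called (0.19). In one fit over the 36 libraries the calls of INHBA (0.16) and TGFB1 (-0.28) were lost.

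In cis SSP cells under carboplatin, 0 of 6 members tested were called in complete medium, beside 2.72% of all genes, and 0 of 6 without serine and glycine, beside 1.47%. DESeq2 called 0 in each as well, and at an unadjusted p under 0.05 stood 2 members (TGFB3 and SMAD7) in complete medium and 3 (FSTL3, BMP7 and SMAD7) without serine and glycine. Without libraries 25 and 32, which leaves 2 libraries in each untreated condition, 41.2% and 41.1% of all genes were called. INHBA, FST, FSTL3, TGFB1, TGFB3, BMP7 and SMAD7 were then called in complete medium, which is all 7 members tested, and 5 of 7 were called without serine and glycine.

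Among these, FSTL3 went from 31.5 and 29.2 CPM to 49.1, 49.4 and 48.1 in cis SSP carbo, a log2 fold change of 0.71 without library 25 (SE 0.0547, adjusted p = 4.04e-11), against 0.39 with it (adjusted p = 0.461). Library 25 itself had 54.9 CPM of FSTL3. INHBA was at 0.16 without library 25 (SE 0.0312, adjusted p = 1.21e-04) and at 0.38 with it (adjusted p = 0.435). FST had 2, 3 and 3 counts without and 11, 12 and 7 with carboplatin, and without library 25 its change was 1.65 (SE 0.554, adjusted p = 0.0188). In both media FST passed the filter through the treated libraries, where it is high, so its calls are no independent tests. TGFB3 was lower under carboplatin in complete medium, at -0.37 without library 25 (SE 0.0597, adjusted p = 1.73e-05) and -0.31 with it. BMP7 (0.35), TGFB1 (0.32) and SMAD7 (0.21) were higher without library 25.

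**Figure D4:**
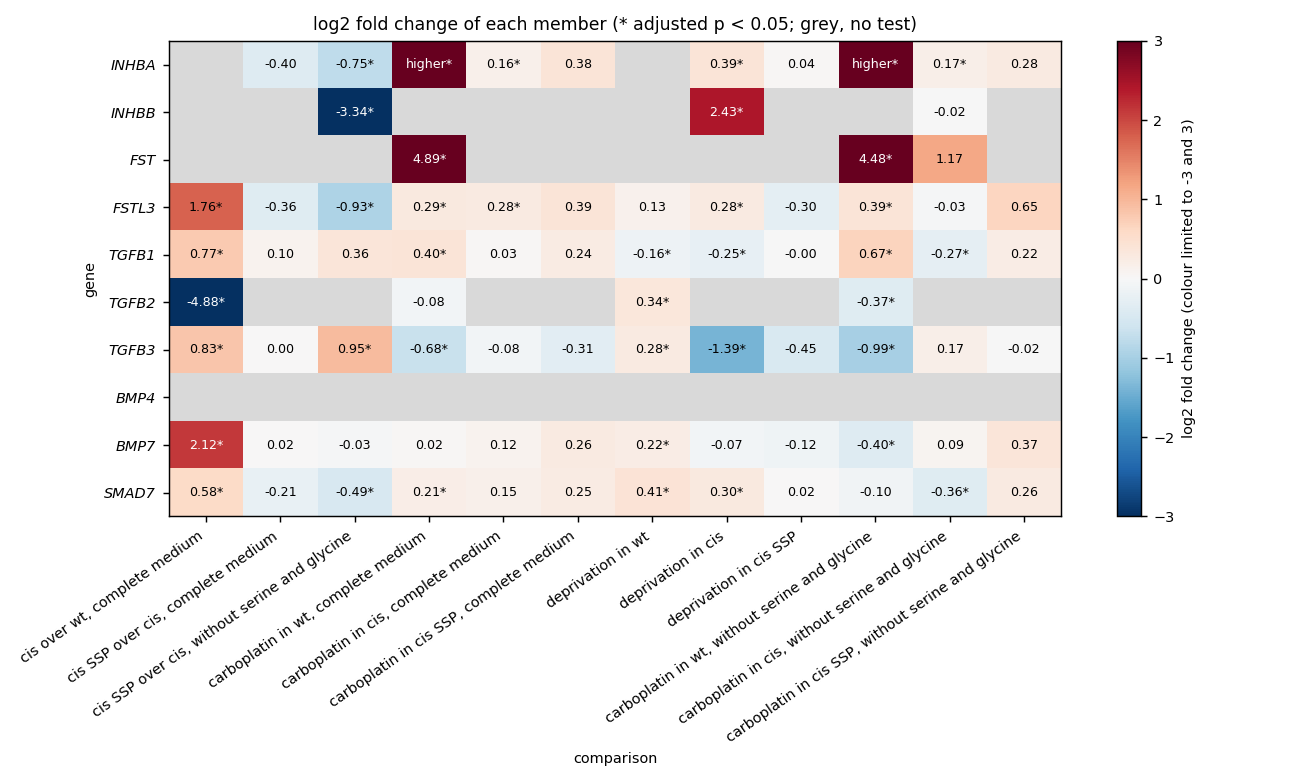
Log2 fold change of each member (rows) in the 12 comparisons of 2 conditions (columns), printed in the cells and shown by colour limited to -3 and 3, where an asterisk marks an adjusted p under 0.05, grey marks no test and "higher" stands for a value against a condition with at most 3 counts in all. FST reads 4.89 and 4.48 under carboplatin in wt, INHBB reads 2.43 under deprivation in cis and -3.34 in cis SSP -SG over cis -SG, and the 4 columns of cis SSP with no asterisk include libraries 25 and 32.

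Target genes of the pathway moved with carboplatin in wt cells. Of 18 tested, 16 were called higher and 0 lower, with a median log2 fold change of 1.67, beside 38.9% of all genes called higher and a median of -0.000736. The 16 include a target that passed the filter through wt carbo, where it is high, so its call is no independent test. COL1A1, a fibrillar collagen chain, went from 162 ± 1.59 to 859 ± 6.82 CPM. In cis cells, 6 of 16 targets were higher and 1 lower, beside 9.27% and 10.8% of all genes, with a median of 0.10, and COL1A1 was the one that fell, from 4.02 ± 0.671 to 2.51 ± 0.6 CPM. The interaction between the lines was called for 13 of 19 targets, all with the lower response in cis, beside 27.2% of all genes called lower and 30.3% higher. The 19 include targets that passed the filter through wt libraries, where they are high, and were not among the 16 tested in cis. For these a call is no independent test, which limits the reading of 13 of 19. PMEPA1, another target, had at most 0.0444 CPM in any wt condition, with or without carboplatin.

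Genes that store latent TGF-beta or release it were read under carboplatin in wt, in complete medium, as were the remaining lists. In that comparison 38.9% of all genes tested were called higher and 39.0% lower. Of 10 such activation and latency genes, 7 rose and 3 fell under carboplatin, with thrombospondin 1 (THBS1), an activator of latent TGF-beta, going from 15.6 ± 0.468 to 426 ± 12.3 CPM and LTBP2, a matrix protein of the latent TGF-beta binding protein family, from 6.09 ± 0.189 to 117 ± 2.77. In cis, THBS1 was at 3.59 ± 0.072 CPM without and 3.75 ± 0.821 CPM with carboplatin. Of 14 SMADs and co-regulators in wt, 6 rose and 6 fell: SMAD3 rose from 33.9 ± 2.37 to 69.3 ± 1.11 CPM, and SMAD9 fell from 19.8 ± 0.523 to 10.6 ± 0.324. Of 12 receptors, 7 rose and 5 fell, the latter with ACVR2B from 85.1 ± 3.68 to 38.9 ± 3.01 CPM. Of 7 ligands tested, 2 rose and 4 fell, with GDF11 from 58.7 ± 1.47 to 36.02 ± 1.408 CPM. Of 7 antagonists, 3 rose and 4 fell, with the nodal and BMP antagonist CER1 from 9.28 ± 0.383 to 19.4 ± 1.22 CPM. In total 41 of 68 pathway genes were higher and 22 lower, beside the 38.9% and 39.0% of all genes.

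Deprivation of serine and glycine was examined in the same way. ASNS, a target of the amino acid response, went from 344 to 480 CPM in wt, from 214 to 308 in cis and from 164 to 424 in cis SSP (146 to 376 without libraries 25 and 32). With both libraries kept, the change of ASNS in cis SSP was not called (edgeR, adjusted p = 0.187). In cis cells, INHBA, INHBB, FSTL3 and SMAD7 rose and TGFB1 and TGFB3 fell, so that 6 of 7 members tested were called, beside 75.0% of all genes, with medians of 0.28 and 0.012.

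INHBB had 11, 4 and 6 counts in cis and 36, 47 and 41 in cis -SG, or 0.422 ± 0.263 and 2.12 ± 0.312 CPM. Its log2 fold change of 2.43 (SE 0.305, adjusted p = 1.22e-09) was the highest of the members tested in this comparison. INHBB passed the filter through cis -SG, where it is high, so its call is no independent test, and the count of calls above includes it. INHBA rose by 0.39 (SE 0.0308, adjusted p = 1.04e-15), from 190 ± 7.89 to 239 ± 2.72 CPM, and its libraries did not overlap. TGFB3 fell by 1.39 (SE 0.0656, adjusted p = 1.13e-23), from 557, 704 and 616 counts to 270, 242 and 258. SMAD7 rose by 0.30 (SE 0.0631, adjusted p = 4.35e-05), FSTL3 rose by 0.28 (SE 0.0453, adjusted p = 4.01e-07) and TGFB1 fell by 0.25 (SE 0.0431, adjusted p = 5.69e-05). BMP7 was at -0.07 and not called. FST had 2, 3 and 2 counts in cis and 7, 3 and 13 in cis -SG and did not pass the filter. The fit without a filter called FST and BMP7, and the one fit over the 36 libraries called FST. In the latter, the calls of INHBA (0.33) and FSTL3 (0.22) were lost.

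The level of INHBB in cis -SG held under carboplatin, at 39, 34 and 37 counts, with a log2 difference of -0.02 (SE 0.195, adjusted p = 0.952). TGFB3 also stayed low there, at 14.8 ± 1.25 CPM. In cis SSP -SG, INHBB had 4, 2 and 5 counts, and it was therefore not high in that line under the same medium.

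In wt cells, deprivation was followed by 5 called members of 6 tested, beside 49.2% of all genes, with medians of 0.247 and 0.00853. SMAD7 rose by 0.41 (SE 0.0732, adjusted p = 9.40e-05), TGFB3 by 0.28 (SE 0.0637, adjusted p = 0.00119) and BMP7 by 0.22 (SE 0.0668, adjusted p = 0.0105), while TGFB1 fell by 0.16 (SE 0.0444, adjusted p = 0.00986). TGFB2 had 83, 98 and 77 counts in wt and 119, 109 and 94 in wt -SG (0.34, SE 0.126, adjusted p = 0.0312). DESeq2 called 3 of these, without TGFB2 and BMP7, and the call of TGFB2 was also lost without wt replicates 1 or 3 and without wt -SG replicates 1 or 3, at 0.24 to 0.34. The call of TGFB1 was lost without wt replicate 2 (-0.12). In one fit over the 36 libraries the calls of TGFB1 (-0.16), TGFB2 (0.34) and BMP7 (0.21) were lost. INHBA and INHBB stayed at 0 counts in each wt -SG library.

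The responses of wt and cis to deprivation differed for 2 of 8 members tested, beside 54.0% of all genes. For TGFB3, which rose in wt and fell in cis, the difference was -1.65 (SE 0.0903, adjusted p = 4.04e-18). For BMP7 it was -0.27 (SE 0.0722, adjusted p = 0.00154), with 16.97 and 19.7 CPM in wt and 74.7 and 68.2 CPM in cis before and after deprivation. FSTL3 (0.17, adjusted p = 0.123), SMAD7 (-0.09, adjusted p = 0.414) and TGFB1 (-0.08, adjusted p = 0.423) did not pass, though TGFB1 was called without cis replicate 3 (-0.16). INHBB could not be compared, since wt cells had no counts. The 8 also include INHBA, with 0, 1 and 0 counts in wt and 0 in each wt -SG library. TGFB2, with 2, 3 and 3 counts in cis and 3, 4 and 4 in cis -SG, is among them too. With so few counts in a line these members could hardly be called, which limits the reading of 2 of 8 beside 54.0%.

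In cis SSP cells, deprivation gave 0 called members of 6 tested, beside 0.0218% of all genes, by edgeR and by DESeq2, and only TGFB3 stood at an unadjusted p under 0.05. Without libraries 25 and 32, 35.9% of all genes and 3 of 6 members were called. TGFB3 was then at -0.43 (SE 0.0645, adjusted p = 5.04e-06), FSTL3 at -0.24 (SE 0.0688, adjusted p = 0.00724) and TGFB1 at -0.09 (SE 0.0327, adjusted p = 0.0409), while INHBA was at 0.05 (SE 0.0367, adjusted p = 0.341). With both libraries kept, TGFB3 was at -0.45 (adjusted p = 0.559). The difference between cis and cis SSP in this response was not tested.

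Other pathway genes moved with deprivation in cis. Of 66 tested, 38 were higher and 10 lower, beside 37.6% and 37.4% of all genes. BMP2, a ligand of bone and limb development, went from 1.49 ± 0.0692 to 8.26 ± 0.460 CPM, and GDF11 from 61.5 ± 3.41 to 20.01 ± 1.17. LTBP1, which holds latent TGF-beta in the matrix, went from 25.9 ± 1.76 to 59.2 ± 2.46 CPM, as 7 of 10 activation and latency genes rose and 0 fell. Of 16 targets, 8 rose and 2 fell, with PMEPA1 from 10.6 ± 0.4 to 38.5 ± 0.552 CPM. Of 14 SMADs and co-regulators, 9 rose and 2 fell, among them the SMAD repressor gene SKIL from 249 ± 2.39 to 380 ± 4.84 CPM. In wt, 29 of 63 were higher and 12 lower, beside 24.1% and 25.1% of all genes, with the ligand gene INHBE, known from liver and as a target of the amino acid response, from 29.3 ± 1.79 to 96.8 ± 2.50 CPM.

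The last comparison set cis SSP against cis cells. In complete medium, 0 of 6 members tested were called, beside 29.1% of all genes, with 0 at an unadjusted p under 0.05 and 0 by DESeq2. Without library 25, FSTL3 (-0.66, SE 0.0581, adjusted p = 4.40e-12) and INHBA (-0.17, SE 0.0358, adjusted p = 1.33e-04) were called, beside 65.4% of all genes. INHBA was then at a mean of 168 CPM in cis SSP, beside 190 in cis, and FSTL3 at 30.3 beside 48.3.

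Without serine and glycine, 5 of 7 members tested were called, beside 44.8% of all genes, with medians of -0.487 and -0.0113. INHBB was lower in cis SSP, with 4, 2 and 5 counts beside 36, 47 and 41 (-3.34, SE 0.28, adjusted p = 3.29e-04). It passed the filter through cis -SG, where it is high, so its call, which the count includes, is no independent test. TGFB3 was higher, at 26.5 ± 2.53 beside 13.2 ± 0.565 CPM (0.95, SE 0.119, adjusted p = 0.00144). FSTL3 (-0.93, adjusted p = 0.012), INHBA (-0.75, adjusted p = 0.0388) and SMAD7 (-0.49, adjusted p = 0.00897) were lower in cis SSP. Leaving out single libraries gave 2 to 6 calls: INHBB and TGFB3 were called each time, INHBA was lost without any 1 of the cis -SG libraries or without cis SSP -SG replicate 3, at -0.74 to -0.82, FSTL3 without cis -SG replicate 1 (-0.92) or cis SSP -SG replicate 3 (-0.78), and SMAD7 without cis -SG replicates 1 (-0.47) or 2 (-0.46). Without library 32, 6 of 7 were called, beside 75.5% of all genes, with INHBA at -0.52 (SE 0.0316, adjusted p = 4.15e-20) and TGFB1 called at 0.20 (SE 0.0323, adjusted p = 2.40e-07).

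TGFBR2, the type II receptor for TGF-beta, was far higher in cis SSP than in cis cells. It had 245 ± 61.9 CPM in cis SSP and 15.01 ± 0.914 in cis, and its log2 fold change of 4.01 over cis (SE 0.248, adjusted p = 1.79e-04) stood beside 3.69 without serine and glycine (SE 0.23, adjusted p = 1.46e-04). Its condition means ran from 227 to 254 CPM over the cis SSP conditions and from 9.71 to 18.8 CPM over all others. The antagonist NOG, noggin, had 10.95 ± 3.79 CPM in cis SSP and 0.540 ± 0.0822 in cis. DCN, decorin, a matrix proteoglycan that binds TGF-beta and is also on the fibroblast list, had 24.7 ± 2.39 CPM in cis SSP and 0.628 ± 0.323 in cis. Of 17 targets, 9 were higher and 4 lower, beside 15.8% and 13.3% of all genes, with TAGLN, an actin-binding protein of smooth muscle, at 28.6 ± 6.78 beside 9.30 ± 1.18 CPM. Without library 25, the 2 other cis SSP libraries had means of 280 CPM for TGFBR2 (log2 fold change 4.24 over cis), 8.80 for NOG (4.03), 23.4 for DCN (5.20) and 24.7 for TAGLN (1.42), all called, and 9 of 18 targets were higher and 6 lower, beside 32.9% and 32.5% of all genes. NOG and DCN had few counts in cis and passed the filter through cis SSP, where they are high, so their calls are no independent tests. Of the 6 fibroblast genes, COL3A1 had at least 10471 counts in every library, while COL1A2 had at most 20 in cis SSP. The part of other cells in these values was not tested.

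Across the 12 condition means, the Pearson r of INHBA was 0.959 with FSTL3, 0.963 with BMP7 and -0.984 with TGFB2. INHBA was selected as near 0 in wt and high in resistant cells. A clear difference between these lines therefore tends to give a gene a large r, and the values are a description without a test. They describe 12 points that share 3 lines and the scaling of 36 libraries. Within the resistant lines, INHBA was highest in cis -SG carbo (267 CPM) and BMP7 in cis SSP carbo (89.75 CPM). The same limit holds for the 3 genes named next. Among 12818 genes, the 3 whose pattern was most like that of INHBA on the log2 scale were LAMC3 (r = 0.997), a laminin subunit, MMP3 (0.996), a matrix metalloproteinase, and NPTX2 (0.996), a neuronal pentraxin. LAMC3 ran from 7.35 to 16.4 CPM over the wt conditions and from 88.4 to 121 CPM over the others, MMP3 from 51.5 to 161 and from 1190 to 2230, and NPTX2 from 0.0884 to 0.633 and from 15.5 to 32.3.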

How the data were processed

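The authors deposited raw counts per gene for 36 libraries. Per the labels and the study's methods, total RNA libraries (SENSE kit) were sequenced as single reads and aligned with STAR to GRCh37.p13, and HTSeq counted reads per gene over the exons of GENCODE v19. The handling of strand and of reads with several alignments is not given in the sources used here. Of the table, 3 rows name no gene and stayed out of library sizes and tests, and reads on no feature made up 4.21% to 17.9% of a library. Gene symbols (55538 of 57820 identifiers), positions and exon lengths came from GENCODE v44 mapped to GRCh37.

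Groups followed the sample labels, whose numbers name the 36 libraries and mark no replicates. Each comparison was fitted on its own conditions with edgeR 4.0.16 in R 4.3.3 (TMM, filterByExpr, glmQLFit with robust estimation, glmQLFTest), with p-values adjusted by Benjamini-Hochberg over all genes tested. A gene was called at an adjusted p under 0.05. The fits were tested on simulated data. Differences between lines were interaction terms. Ratios against 0 counts use 3 counts per library. Alternatives were DESeq2 1.42.0, other scalings and filters, one fit over the 36 libraries, a size limit on calls (log2 fold change of 1 or more either way), single libraries left out, libraries 25 and 32 left out, and, chosen after seeing the data, libraries 23 and 24 left out.

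The 10 members, the pathway lists and the tests were chosen with earlier results of these data known. All members are named. Of other pathway genes, at most 2 called genes per list and comparison with a mean of at least 50 counts were eligible, by size of change. CDKN1A and ASNS check the treatments. Likeness to INHBA used log2(CPM + 0.5) over 12 condition means for genes with a condition mean of at least 1 CPM. Upstream sequences came from RefSeq (GRCh38.p14). One target gene and one marker gene are not reported here by name, and the counts over the target list include the former.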

Additional observations from a re-analysis of the deposited data

Results flagged for a closer look

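In 6 cases the response of a member differed between wt and cis cells by the test of the difference itself (edgeR interaction term, adjusted p under 0.05). Under carboplatin, the fitted difference of log2 fold changes, cis minus wt, was -5.76 for INHBA and -3.98 for FST, where untreated wt had 1 INHBA count in all and untreated cis 2, 3 and 2 FST counts, so these are no sizes. Neither is an independent test, since INHBA was selected on its near absence in wt cells and FST passed the filter through wt carbo, where it is high. For the well-counted TGFB1 it was -0.36 and for TGFB3 0.60. Under deprivation of serine and glycine it was -1.65 for TGFB3, which was lower in cis -SG and higher in wt -SG, and -0.27 for BMP7. In the same fits 57.6% and 54.0% of all genes tested were called.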

How the results depend on the processing

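No called value changed sign. Of the log2 fold changes of single members under the alternatives, 1137 kept their direction and side of the threshold, 60, none of them called, changed sign, 47 passed and 40 no longer passed. Where calls also needed a log2 fold change of 1 or more either way, they fell to 3 between wt and cis, 2 for carboplatin in wt with or without serine and glycine, 0 for carboplatin in cis in either medium, 0 for deprivation in wt, 2 for deprivation in cis, 1 for cis SSP over cis without serine and glycine, 2 for the carboplatin and 1 for the deprivation interaction. The calls left for carboplatin in wt, in either medium, and for the carboplatin interaction were those of INHBA and FST. INHBB was the call left for cis SSP over cis without serine and glycine and 1 of the 2 for deprivation in cis. TGFB2 was 1 of the 3 between wt and cis. As stated above, these calls are no independent tests. One fit over the 36 libraries called 3 for cis SSP over cis in complete medium, 0 for carboplatin in cis, 1 without serine and glycine, 3 for carboplatin in cis SSP, 5 without serine and glycine, 2 for deprivation in wt and 1 in cis SSP. DESeq2 called 3 for deprivation in wt, and at least 10 counts in every library left 2 for the carboplatin interaction, where INHBA and FST were no longer tested. Without libraries 25 and 32 there were 2 calls for cis SSP over cis, 7 for carboplatin in cis SSP, 5 without serine and glycine and 3 for deprivation. With single libraries left out, deprivation in cis SSP ran from -0.19 to 0.27 for INHBA and from -0.55 to 0.01 for FSTL3. Single libraries left out gave 0 to 2 calls for cis SSP over cis, 2 to 6 without serine and glycine, 0 to 7 for carboplatin in cis SSP and 0 to 5 without serine and glycine. The cause of these shifts was not tested. Members with few counts (BMP4 throughout, INHBB and FST in most conditions) are limited by depth. No paired analysis was possible because the libraries carry no replicate numbers.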
